A study of Homo sapiens with 43 samples.

Results

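Integrins outside the platelet receptor were followed as 10 named genes among the 58347 gene entries of the RNA count table. They were listed by name: the leukocyte chains ITGAM, ITGAL, ITGAX and ITGB2, the chains ITGA4, ITGA5, ITGA6 and ITGB1, and the chains ITGAV and ITGB8. Of these, 9 passed the filter on low counts in RNA-seq, and ITGB8, with 0 to 6 counts per library, did not.

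Integrins are cell surface receptors built from 1 alpha and 1 beta chain, which tie the cell to matrix proteins or to other cells and signal in both directions across the membrane. In blood, ITGB2 pairs with ITGAL (CD11a), ITGAM (CD11b) or ITGAX (CD11c) on leukocytes and serves adhesion to ICAMs and phagocytosis, while ITGB1 pairs with ITGA4 and ITGA5 and holds haematopoietic progenitors and erythroid precursors to VCAM1 and fibronectin. ITGA2B with ITGB3, the platelet fibrinogen receptor, is the integrin of megakaryocytes and was used here only for comparison.

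HEL cells, a line from a human erythroleukemia with erythroid and megakaryocytic features, had been stably transduced with U2AF1 as S34F or Q157R mutant or as wild type (WT). U2AF1 is the small subunit of U2AF, which binds 3' splice sites in pre-mRNA. Doxycycline at 1 µg/ml for 48 hours was the inducer, per the labels. RNA-seq after rRNA depletion gave 2 induced S34F libraries, 1 uninduced S34F, 2 induced Q157R, 1 uninduced Q157R, 2 induced WT and 2 uninduced WT libraries. U2AF1 binding was measured by eCLIP (crosslinking and immunoprecipitation) in induced WT cells, and by freCLIP, which splits the immunoprecipitate into a light and a heavy gel fraction, in all induced lines. All lines carried a transgene, and untransduced cells were not analysed here. Whether a line was 1 clone or a pool is not given in the sources used here. With 1 uninduced library each for S34F and Q157R, only WT had replicates in both states.

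RNA libraries held 22392303 to 40370092 gene counts. Levels below are in CPM, read counts relative to the size of the library, scaled between libraries by TMM, and levels of different genes are compared per kilobase of exon. A gene was called when its edgeR adjusted p, over all genes tested, was under 0.05. The U2AF1 gene itself stood at 18.7 ± 0.972 CPM in induced S34F cells, 18.3 ± 4.48 CPM in induced Q157R cells and 15.0 ± 5.71 CPM in induced WT cells (SD, n = 2 each). Uninduced cells had 21.2 CPM in S34F, 22.1 CPM in Q157R and 13.4 and 12.6 CPM in WT. The U2AF1 gene count thus showed no rise on induction in the mutant lines and overlapped in WT. The counts do not part the transgene from the cell's own gene, so they do not show whether the transgene was induced. Like-numbered libraries deviated together from their group means, so the fit with replicate number as a block is given beside the members whose call it changes and beside the list counts for S34F over WT. The labels call the replicates biological without naming separate cultures, so p-values measure the spread between these libraries, which may be technical in part.

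HEL cells expressed ITGA4, ITGA5 and ITGB1, but not ITGA6, far above the leukocyte chains. Per kilobase of exon, the median over the 10 libraries was 51.3 CPM for ITGA5, 51.1 CPM for ITGA4 and 44.5 CPM for ITGB1. Their ranges, 39.5 to 65.0 CPM, 36.1 to 73.7 CPM and 37.6 to 56.2 CPM per kilobase, overlapped, so no order among them held in every library. ITGAV, the vitronectin and latent TGF-beta receptor chain, followed at 8.32 CPM per kilobase, and its highest library (11.1 CPM) lay below the lowest of the leading chains. ITGA6, a laminin receptor chain, came next at 2.88 CPM, ITGAM at 2.20 CPM, ITGAL at 1.02 CPM and ITGB2 at 0.560 CPM per kilobase. The ranges of these neighbours overlapped as well, and ITGA6 exceeded ITGAV in 1 library, uninduced WT replicate 2. In both induced S34F libraries ITGAM exceeded ITGA6, at 5.22 and 7.16 against 1.36 and 1.62 CPM per kilobase. ITGAX at 0.0378 CPM and ITGB8 at 0.0058 CPM per kilobase were at the edge of detection and ranked below all other members in every library, ITGB8 last.

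**Figure D1:**
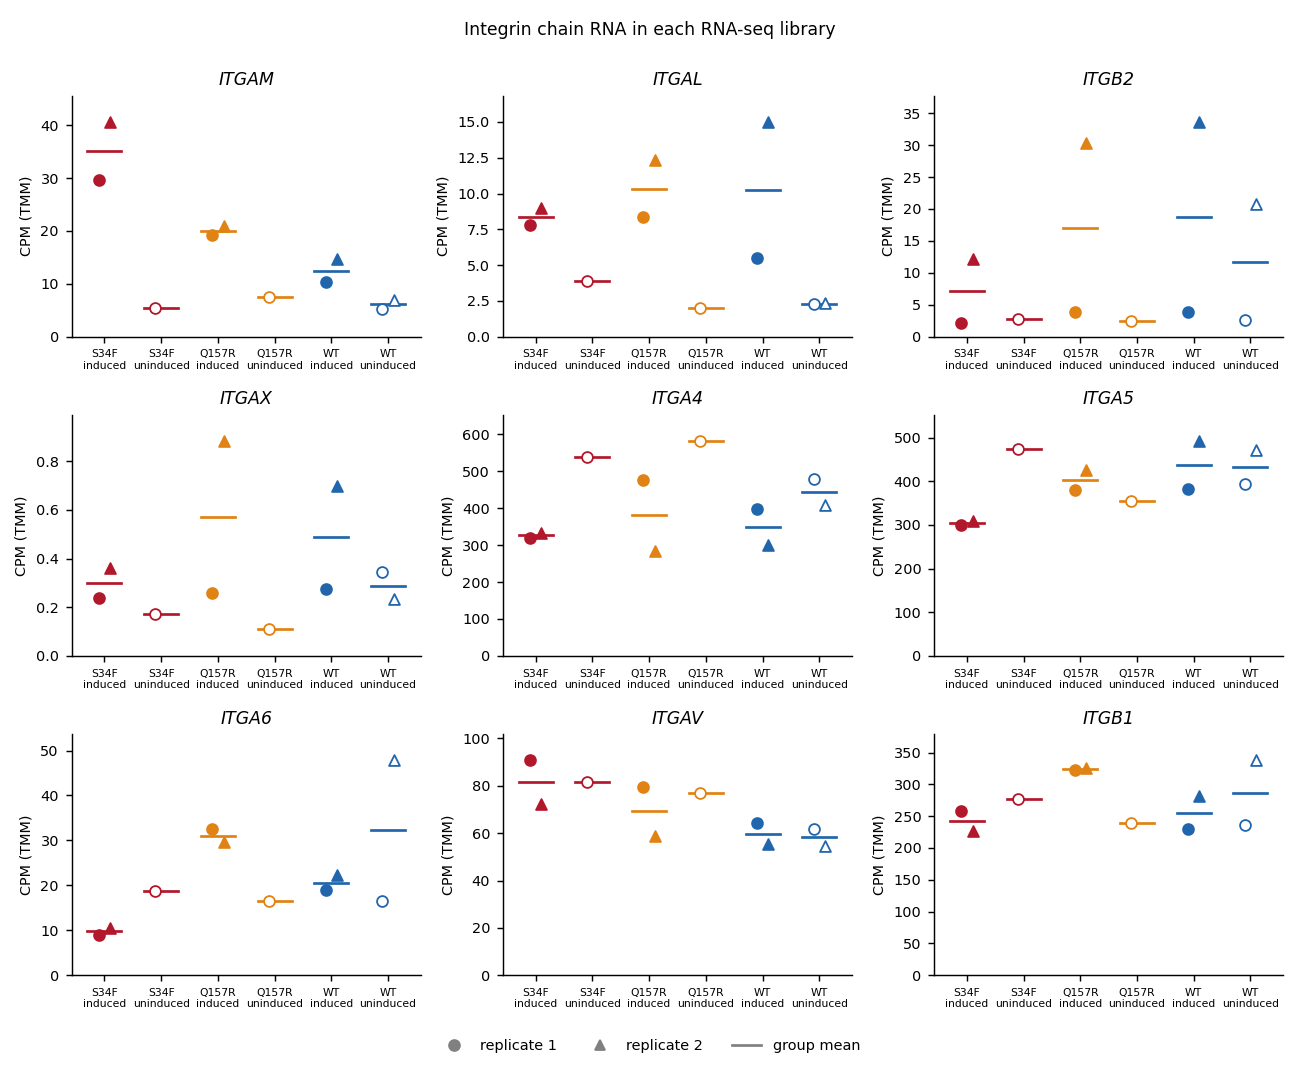
RNA level of the 9 tested integrin chains in each RNA-seq library (CPM, TMM-scaled, linear axes from 0), by line and induction. Circles are replicate 1, triangles replicate 2, filled symbols induced cells, open symbols uninduced cells, and bars group means. ITGAM is highest in the 2 induced S34F libraries, while ITGB2 separates replicate 2 from replicate 1 in each group with 2 libraries.

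ITGAM, the alpha chain of the complement receptor CD11b/CD18, was the member with the clearest change: it was 2.82-fold higher in induced S34F than in induced WT cells. It lies at chr16:31259967-31332892 on the plus strand (GRCh38, GENCODE 29). ITGAM stood at 29.7 and 40.7 CPM in induced S34F cells, at 19.2 and 21.0 CPM in induced Q157R cells and at 10.3 and 14.7 CPM in induced WT cells. The lines did not overlap, with S34F above Q157R and Q157R above WT. Before induction the values lay close together, at 5.38 CPM in S34F, 7.47 CPM in Q157R and 5.32 and 6.98 CPM in WT.

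Because ITGAM is the member that moved, its start region is shown as RefSeq gives it, 250 bases before to 50 bases after the start, at chr16:31259725-31260024 on the plus strand of GRCh38.p14. Capitals mark GAGGAA, a core letter string of sites for the myeloid factor PU.1, and GGGCGG, the GC box of Sp1, each on either strand.

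ITGAM: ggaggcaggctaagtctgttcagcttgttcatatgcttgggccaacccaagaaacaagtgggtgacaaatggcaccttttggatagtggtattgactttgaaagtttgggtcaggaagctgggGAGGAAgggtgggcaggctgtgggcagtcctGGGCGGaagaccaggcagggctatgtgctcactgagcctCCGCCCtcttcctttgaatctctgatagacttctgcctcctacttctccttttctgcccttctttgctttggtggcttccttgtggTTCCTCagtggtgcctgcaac

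This window held 2 matches to GAGGAA, 2 to GGGCGG and none to the GATA string AGATAA. Of 35116 RefSeq promoter windows of this length, 27.9% held GAGGAA, 45.0% GGGCGG and 10.3% AGATAA, so the letters are common and a match is a description only. Of the other members, ITGA4, ITGA5, ITGA6, ITGAV, ITGB8 and ITGB1 also had RefSeq windows. GAGGAA occurred in windows of ITGAV and ITGB1, GGGCGG in windows of ITGA5, ITGA6, ITGB8 and ITGB1, and AGATAA in a window of ITGAV. ITGA4 held none of these strings. SPI1, the gene of PU.1, had 38.45 ± 17.75 CPM in induced S34F and 61.97 ± 23.68 CPM in induced WT cells (SD). Its edgeR adjusted p was 0.3614, and 0.007939 with the replicate block. The part of these strings or of SPI1 in the ITGAM result was not tested.

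In induced S34F over induced WT cells the log2 fold change of ITGAM was 1.5 ± 0.27 (SE), with an edgeR adjusted p of 0.0448 (5.2e-04 with the replicate block). ITGAM was the only member called in this comparison, 1 of 9, where 1.67% of all 21300 genes tested were called and 0.681% were called higher. The call was lost without any 1 of the 4 induced libraries (adjusted p 0.124 to 0.359, log2 1.25 to 1.75) and when only these groups were fitted (0.0770), settings in which no gene of the table was called. Q157R over WT, 0.69 ± 0.27 on the log2 scale (1.61-fold), did not pass (adjusted p 1.00, and 0.273 with the block). S34F over Q157R, 0.81 ± 0.26 (1.75-fold), did not pass either (adjusted p 0.145), but did with the block (0.00983). All 3 comparisons draw on the same induced libraries and are not independent.

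Induction raised ITGAM 6.54-fold in S34F cells, to 35.2 ± 7.80 CPM (SD, n = 2) against 5.38 CPM in the 1 uninduced library. The log2 fold change was 2.71 ± 0.37 with an edgeR adjusted p of 0.0340, and 2.51 ± 0.25 with the block. In this comparison 1 of 9 members and 1.96% of all genes (0.704% higher) were called, and without either induced S34F library the adjusted p was 0.259 and 0.167, with no gene called. Both other lines pointed the same way with smaller values: 2.69-fold in Q157R (log2 1.43 ± 0.35, adjusted p 0.552, and 0.0627 with the block) and 2.03-fold in WT (1.02 ± 0.27, adjusted p 0.702, and 0.0416 with the block). The difference itself, induction in S34F minus induction in WT, was 1.69 ± 0.44 on the log2 scale (adjusted p 0.589) and 1.49 ± 0.30 with the block (adjusted p 0.0481), where 0.704% of genes passed. Its counterpart for Q157R was 0.41 ± 0.43 (adjusted p 1.00). Between uninduced lines ITGAM differed by -0.20 ± 0.33 for S34F over WT and 0.28 ± 0.33 for Q157R over WT on the log2 scale, and 0 of 9 members and 0% of genes were called for either. At an unadjusted p under 0.05, edgeR had 0 members and 183 genes for S34F and 0 members and 234 genes for Q157R, and DESeq2 called 0 in both.

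The share of reads outside annotated features moved with ITGAM. It was 33.7% and 33.5% in induced S34F libraries, 23.2% and 27.0% in induced Q157R, 22.7% and 22.7% in induced WT and 19.0% to 20.6% in uninduced libraries; its part in the ITGAM result was not tested. Markers of monocytes and granulocytes were read beside ITGAM. Their summed level was 220.9 to 298.5 CPM in induced S34F, 324.8 to 332.1 CPM in induced Q157R and 292.6 to 354.3 CPM in induced WT cells. Of the 19 markers, 12 stayed under 10 counts in every library, among them CD14, MPO, ELANE and S100A8, and none of the 8 tested was called in S34F over WT (1 higher and 2 lower with the block). For all genes in that comparison the block called 9.56% higher and 12.9% lower. On induction of S34F 5 of the 8 were higher and 3 lower (median log2 fold change 0.47). MRC1, 6.13-fold higher, was the only 1 called, where 1.96% of all genes were called and 0.704% were called higher. The block called 2 higher and 1 lower, where 19.2% of all genes passed. Of 15 lymphoid markers, 10 were tested, 3 higher and 7 lower in S34F over WT (median log2 fold change -0.146). Without the block KLRD1 was the only 1 called, where 1.67% of all genes were called and 0.681% were called higher. The block called 1 of the 10 higher and none lower. KLRD1 was 16.8-fold higher, at 9.09 ± 2.92 CPM against 0.543 ± 0.169 CPM in WT (SD, n = 2 each, edgeR adjusted p 0.0432). On induction of S34F it was 61.7-fold higher, from 0.143 CPM in the 1 uninduced library. The part of either marker list in the ITGAM result was not tested. In bulk RNA, more cells of a type and more RNA per cell cannot be told apart.

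Over the 10 libraries, the 3 protein-coding genes most like ITGAM were ZSCAN9 (Pearson r 0.976 of log2 CPM), MGAM2 (0.974) and MGAM (0.973), of 9819 genes with a mean log2 CPM of at least 3. MGAM, a maltase-glucoamylase, had 39.7 and 46.1 CPM in induced S34F, 18.8 and 32.9 CPM in induced Q157R, and 16.1 and 17.9 CPM in induced WT cells. MGAM and MGAM2 are similar copies whose reads the counting could split, so they may not be separate measurements. Among the members, ITGAL came closest (r 0.771) and ITGA4 ran most against it (r -0.708). These libraries share lines and replicate numbers, and the coefficients are descriptions.

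ITGAL, the alpha chain of LFA-1 (CD11a), was higher in induced than in uninduced cells of every line, without overlap, but not in mutant over WT cells. ITGAL stood at 7.80 and 8.97 CPM in induced against 3.89 CPM in uninduced S34F cells. In Q157R it had 8.33 and 12.4 CPM in induced against 2.00 CPM in uninduced cells, and in WT 5.46 and 15.0 CPM in induced against 2.27 and 2.32 CPM in uninduced cells. Each induced library thus lay above each uninduced one, and the 2 induced WT libraries spanned the induced libraries of both mutants.

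The ITGAL log2 fold change on induction was 1.11 ± 0.58 in S34F (2.15-fold, edgeR adjusted p 0.269), 2.37 ± 0.63 in Q157R (5.16-fold, 0.552) and 2.15 ± 0.47 in WT (4.44-fold, 0.693). Only WT passed with the block (4.12-fold, adjusted p 0.0336; 0.175 in S34F and 0.0865 in Q157R). In WT, 0 of 9 members and 0% of genes were called without the block, against 2 of 9 members, ITGAM and ITGAL, and 0.418% of genes with it. At an unadjusted p under 0.05, edgeR had 2 members and 1363 genes, and DESeq2 called 1 member and 18 genes. In Q157R, 0 of 9 members and 0% of genes were called, DESeq2 called 1 member and 69 genes, and 2 members and 1888 genes had an unadjusted p under 0.05. S34F over WT in induced cells was -0.28 ± 0.45 (adjusted p 0.730), and 0.60 without induced WT replicate 2, whose 15.0 CPM was the highest value of the gene. In uninduced cells S34F over WT was 0.76 ± 0.55 (adjusted p 1.00).

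ITGB2 (CD18), the beta chain that ITGAM, ITGAL and ITGAX need to reach the surface, followed the replicate number. ITGB2 had 2.17 CPM in replicate 1 and 12.2 CPM in replicate 2 of induced S34F cells. The same libraries were at 3.83 and 30.3 CPM in Q157R and at 3.79 and 33.7 CPM in WT, and uninduced WT cells had 2.62 and 20.7 CPM. The uninduced S34F and Q157R libraries, both replicate 1, had 2.83 and 2.40 CPM. All 6 replicate 1 libraries lay between 2.17 and 3.83 CPM and all 4 replicate 2 libraries between 12.2 and 33.7 CPM.

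Replicate 2 was 5.64-fold above replicate 1 in induced S34F, 7.92-fold in induced Q157R, 8.89-fold in induced WT and 7.92-fold in uninduced WT cells. Only 27 of 21300 tested genes (0.127%) had a ratio of at least 5.64 in all 4 groups, while 19.8% were higher in replicate 2 each time. What differed between the replicates is not stated in the labels, and for S34F and Q157R, ITGB2 cannot be compared between induced and uninduced cells except within replicate 1. There it had 2.17 CPM in induced and 2.83 CPM in uninduced S34F cells, and 3.83 CPM in induced and 2.40 CPM in uninduced Q157R cells. Of the other tested members, ITGAM, ITGAL and ITGA5 were also higher in replicate 2 of all 4 groups, by 1.02-fold to 2.75-fold.

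**Figure D2:**
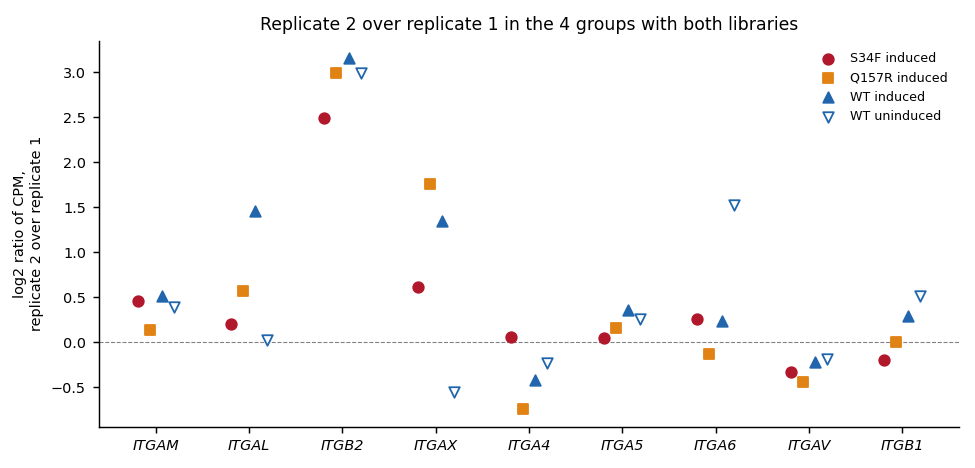
Ratio of replicate 2 to replicate 1 (log2 of CPM) for the 9 tested integrin chains in the 4 groups with both libraries, 1 symbol per group. ITGB2 lies at 5.64-fold or more in all 4 groups.

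Among induced cells ITGB2 was lower in S34F within each replicate number, but not among uninduced cells, where replicate 1 had 2.83 CPM in S34F and 2.62 CPM in WT. Its log2 fold change in induced S34F over WT cells was -1.37 ± 1.41 (2.58-fold lower, edgeR adjusted p 0.585), and with the block -1.18 ± 0.21 (2.27-fold lower, adjusted p 0.00356). S34F over Q157R was -1.24 ± 1.40 (adjusted p 0.649) and -1.10 ± 0.22 with the block (2.15-fold lower, adjusted p 0.00595). ITGAM and its beta chain thus differed from WT in opposite directions in induced S34F cells under the block. ITGB2-AS1, an antisense gene within the locus, had 0 to 19 counts against 55 to 915 for ITGB2, and the strand setting of the counting is not given in the sources used here. ITGAX, the alpha chain of CD11c/CD18, had 6 and 11 counts in induced S34F, 7 and 25 in induced Q157R and 11 and 19 in induced WT libraries. Its S34F over WT value, -0.64 ± 0.73 on the log2 scale (adjusted p 0.621), was not distinguishable from 0 at this depth.

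**Figure D3:**
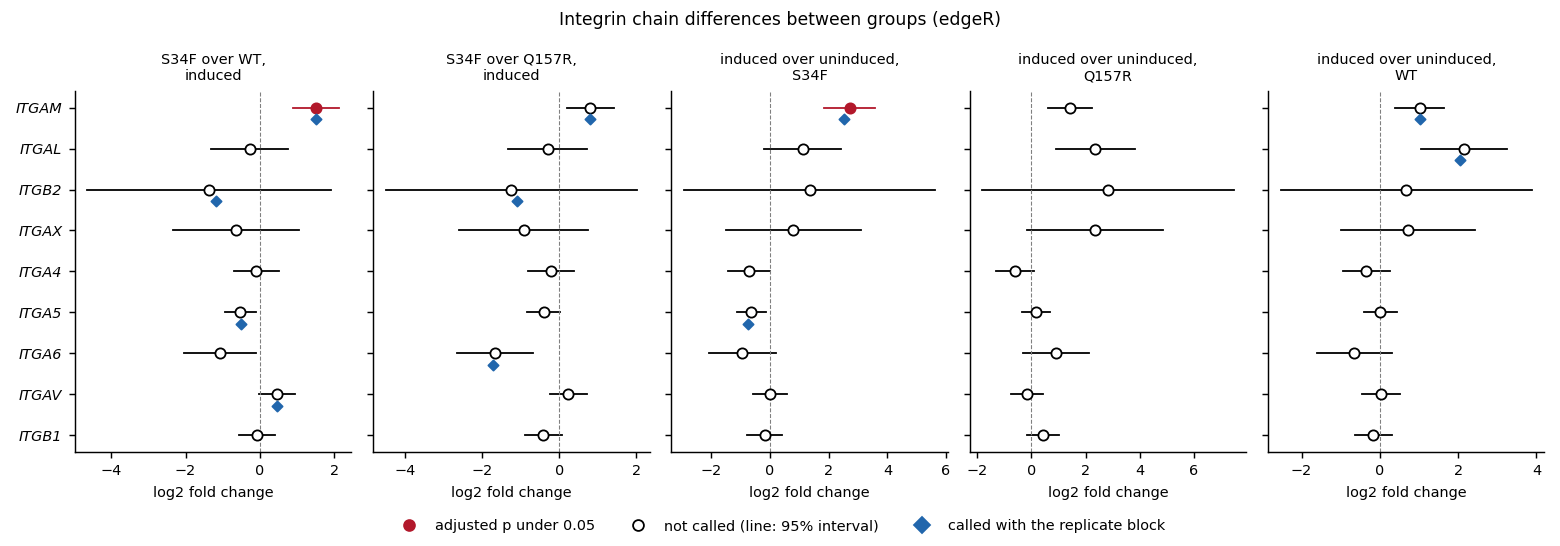
Log2 fold change of each tested integrin chain in 5 comparisons (circles, with 95% intervals; red, adjusted p under 0.05 in edgeR). Blue diamonds are the fold changes that pass with the replicate block. Without the block, ITGAM is called in S34F over WT and in the induction of S34F, and ITGB2 has the widest intervals.

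ITGA5, the alpha chain of the fibronectin receptor, was lowest in induced S34F cells. ITGA5 had 299.3 and 309.0 CPM there, 380.0 and 425.7 CPM in induced Q157R and 383.3 and 492.2 CPM in induced WT cells. Uninduced cells had 473.3 CPM in S34F, 355.4 CPM in Q157R and 394.1 and 472.5 CPM in WT. Both induced S34F libraries lay below all 8 others. Relative to WT, S34F cells had a log2 difference of -0.53 ± 0.18 (1.44-fold lower, edgeR adjusted p 0.143), which passed with the block (adjusted p 0.0176). Induction in S34F gave -0.64 ± 0.22 (1.56-fold lower, adjusted p 0.130), and with the block -0.74 ± 0.16 (adjusted p 0.0111). S34F over Q157R was -0.41 ± 0.18 (adjusted p 0.245), and induction in S34F minus induction in WT was -0.65 ± 0.29 (adjusted p 0.610); neither passed with the block (0.0516 and 0.116).

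ITGA4, the alpha chain of the VCAM1 receptor of progenitors, was lower in induced than in uninduced cells of each line. ITGA4 had 320.7 and 332.9 CPM in induced and 539.9 CPM in uninduced S34F cells. Q157R cells had 477.3 and 285.3 CPM when induced and 582.2 CPM when not, and WT cells had 398.8 and 299.6 CPM when induced and 479.1 and 408.6 CPM when not. No induced library reached an uninduced one of its own line. The log2 fold changes, -0.72 ± 0.31 in S34F, -0.61 ± 0.31 in Q157R and -0.35 ± 0.26 in WT, passed in no line (edgeR adjusted p 0.193, 0.581 and 0.853) and in none with the block (0.0973, 0.341 and 0.356). The induced lines overlapped, with S34F over WT at -0.10 ± 0.26 (adjusted p 0.852), a difference that took the other sign when scaled on protein-coding genes (0.05).

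ITGA6 set the mutants apart from each other. It had 8.87 and 10.6 CPM in induced S34F, 32.5 and 29.7 CPM in induced Q157R and 18.9 and 22.2 CPM in induced WT cells, so that WT lay between the mutants and no line overlapped another. Before induction ITGA6 had 18.8 CPM in S34F, 16.5 CPM in Q157R, and 16.6 and 47.8 CPM in WT, where the replicates differed more than the lines. S34F over Q157R was -1.67 ± 0.43 on the log2 scale (3.19-fold lower, edgeR adjusted p 0.0935), and with the block -1.71 ± 0.38 (3.26-fold lower, adjusted p 0.0223). In that comparison 0 of 9 members and 0.559% of genes were called. DESeq2 called 1 member, ITGA6, and 1239 of all 21300 genes. At an unadjusted p under 0.05, edgeR had 2 members and 4587 genes. With the block, ITGAM, ITGB2 and ITGA6 were called, 3 of 9, where 20% of all genes were.

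Against WT, ITGA6 in S34F was -1.08 ± 0.42 (adjusted p 0.182, and 0.0795 with the block) and in Q157R 0.60 ± 0.42 (adjusted p 1.00). In Q157R over WT as a whole, 0 of 9 members and 0% of genes were called; 1 member and 716 genes had an unadjusted p under 0.05 in edgeR, and DESeq2 called 0 members and 3 genes. On induction ITGA6 was -0.95 ± 0.50 in S34F (adjusted p 0.274) and 0.92 ± 0.53 in Q157R (0.599). Induction in Q157R minus induction in WT was 1.57 ± 0.68 (adjusted p 1.00). An antisense entry, AC078883.1, overlaps ITGA6 with 90 to 315 counts per library against 225 to 1425 for ITGA6, so reads of the 2 genes may be mixed.

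ITGB1, the common beta chain, had the smallest spread over the libraries among the tested members. It had 258.5 and 226.3 CPM in induced S34F, 323.0 and 325.0 CPM in induced Q157R and 229.1 and 281.6 CPM in induced WT cells. Its highest library was 1.49-fold above its lowest, and S34F differed from WT by -0.07 ± 0.21 (log2; edgeR adjusted p 0.856), with the opposite sign, 0.07, when scaled on protein-coding genes. ITGAV had 90.8 and 72.4 CPM in induced S34F, 79.5 and 58.8 CPM in induced Q157R and 64.2 and 55.4 CPM in induced WT cells. S34F lay above WT without overlap, and above WT in replicate 1 as in replicate 2. That difference, 0.45 ± 0.21 (1.37-fold, adjusted p 0.242), passed with the block (1.36-fold, adjusted p 0.0397).

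Counting the members together, 4 of 9 passed with the block in S34F over WT, ITGAM and ITGAV higher and ITGA5 and ITGB2 lower, where 22.4% of all genes passed (9.56% higher, 12.9% lower). The median log2 fold change of the 9 members was -0.28, against 0.00 over all genes and -0.16 over protein-coding genes tested, and scaling on protein-coding genes moved the median of all genes to 0.14. On induction of S34F the block left ITGAM higher and ITGA5 lower, 2 of 9, with 19.2% of all genes passing.

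The rest of the integrin system was read from lists. Of 16 other integrin chains, 13 were tested, and in induced S34F over WT cells ITGB3, the beta chain of the platelet receptor, fell 1.93-fold, to 128.7 ± 2.86 CPM in S34F against 248.6 ± 5.52 CPM in WT (SD, n = 2 each; edgeR adjusted p 0.0448). No other chain was called there, where 1.67% of all genes were called. The block called 3 of the 13 higher and 2 lower, against 9.56% of all genes higher and 12.9% lower. DESeq2 called 2 of the 13 and 1569 of all genes. In S34F cells ITGB7, the partner of ITGA4 in the gut-homing receptor, rose 6.47-fold on induction. It had 5.39 ± 0.652 CPM against 0.830 CPM in the 1 uninduced library (edgeR adjusted p 0.0418). Without the block it was the only 1 of the 13 called, where 1.96% of all genes were. The block called 1 of the 13 higher and 4 lower, where 19.2% of all genes passed. DESeq2 called 3 of the 13 and 1790 of all genes.

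Several genes that act on integrins from inside the cell were lower in S34F. Of 34 tested activators, adaptors and focal adhesion genes, 5 were called lower and none higher in S34F over WT. By sign alone, 30 had a log2 fold change below 0 and 4 above. Of all 21300 genes tested, 1.67% were called, 211 of them lower. The block called 15 of the 34 lower and none higher, against 12.9% of all genes and 2626 of 13602 protein-coding genes lower. DESeq2 called 10 of the 34 and 1569 of all genes. The list's median log2 fold change was -0.39, against 0.00 over all genes and -0.16 over protein-coding genes tested; whether the list differs from other genes was not tested. ACTN1, which links integrins to actin, fell 2.5-fold, to 102.0 ± 19.3 CPM in S34F against 254.7 ± 11.3 CPM in WT (adjusted p 0.0432). FERMT3, the kindlin of blood cells, which binds beta chain tails, fell 1.92-fold, to 209.2 ± 18.2 CPM against 402.6 ± 15.6 CPM in WT (0.0444). RASGRP2, the exchange factor for RAP1 upstream of talin, fell 2.89-fold, to 14.9 ± 4.09 CPM against 43.2 ± 1.03 CPM in WT (0.0449). FERMT2, a kindlin of other tissues, fell 3.79-fold from a low level, to 1.70 ± 0.218 CPM against 6.44 ± 0.0952 CPM in WT (0.0432). ACTN1 and FERMT2 were also lower in S34F than in Q157R, 2.12-fold and 4.49-fold (adjusted p 0.0495 and 0.0385). Markers of megakaryocytes and platelets were also lower in S34F, but their list includes ITGB3, ITGA2B and THBS1. It is thus not separate from the integrin genes read here. Their summed level was 4978 to 5418 CPM in induced S34F, 7302 to 7987 CPM in induced WT and 5822 to 8195 CPM in induced Q157R cells. Of 17 tested in S34F over WT, 16 had a log2 fold change below 0 and 1 above. Below 0 were 10646 of all 21300 genes and 8334 of 13602 protein-coding genes. Without the block only ITGB3 itself was called. The block called 11 of the 17 lower and none higher, against 12.9% of all genes lower. DESeq2 called 3 of the 17 and 1569 of all genes. The part of these markers in the falls above was not tested.

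Ligands and associated membrane proteins gave no calls in S34F over WT. None of 27 tested ligands and none of 14 associated proteins passed in edgeR. DESeq2 called 3 and 2, and 6 and 3 had an unadjusted p under 0.05 in edgeR. The block called 8 (1 higher, 7 lower) and 3 (1 higher, 2 lower). Of all 21300 genes tested, DESeq2 called 1569, 4973 had an unadjusted p under 0.05, and the block called 9.56% higher and 12.9% lower. THBS1, the most abundant ligand, stood at 1797 ± 700.4 CPM in S34F and 2255 ± 1290 CPM in WT cells. TGFB1, whose latent form ITGAV integrins bind, had 465.1 ± 97.7 CPM in S34F and 890.9 ± 79.2 CPM in WT (1.92-fold lower, adjusted p 0.0617, and 0.00223 with the block). CD44 had 430.0 ± 31.1 CPM in S34F and 473.7 ± 2.27 CPM in WT, and CD47, a partner of ITGAV and ITGB3, had 376.9 ± 33.7 CPM in S34F and 352.9 ± 33.4 CPM in WT.

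The members were ordered otherwise in crosslinked RNA than in RNA-seq. Over the 24 CLIP libraries, ITGA6 had 1120 counts and ITGB8 had 940, although ITGB8 had only 26 counts over the 10 RNA-seq libraries and ITGA6 6545. ITGA4, at 121512 RNA counts, had 23 CLIP counts, ITGA5 had 406, ITGB1 214, ITGB2 72, ITGAL 49, ITGAX 29, ITGAV 17 and ITGAM 11. These sums pool libraries of different depth: ITGA6 led in eCLIP (505 counts, ITGB8 300) and ITGB8 in freCLIP (640 counts, ITGA6 615). ITGA6 and ITGB8 led in both assays, and neither was among the 3 members highest in RNA. In eCLIP of induced WT cells ITGB8 had 128 and 44 counts for U2AF1 and 77 and 51 counts for U2AF2 per biological replicate.

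**Figure D4:**
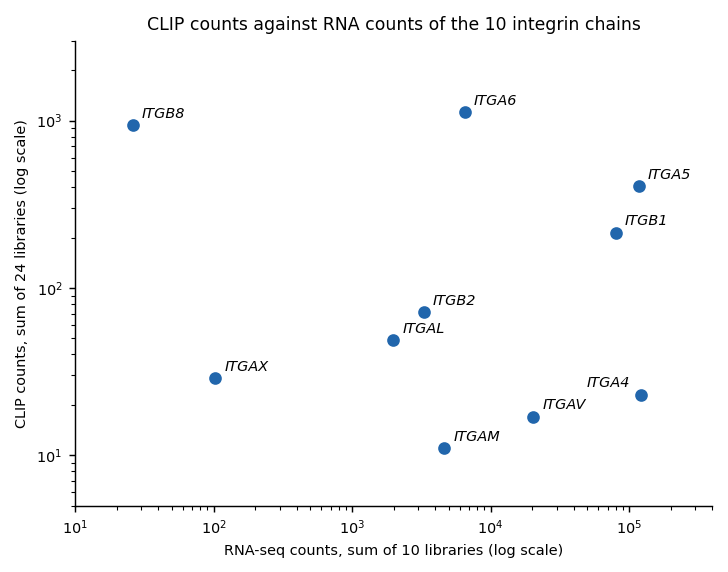
CLIP counts (sum of 24 eCLIP and freCLIP libraries) against RNA-seq counts (sum of 10 libraries) for the 10 integrin chains, both axes logarithmic. ITGB8 lies at 940 CLIP and 26 RNA counts, and ITGA4 at 23 CLIP and 121512 RNA counts.

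ITGB8 (chr7:20330702-20415754, plus strand, GRCh38) is the beta chain with which ITGAV activates latent TGF-beta. Of 5798 protein-coding entries with no more RNA counts than ITGB8, 136 (2.35%) had at least as many CLIP counts, and their median was 6, so ITGB8 was among few but not alone. Among all 19835 protein-coding entries the share was 6.08%. ITGB8 spans a long gene with an overlapping small RNA entry and an antisense entry, AC004130.1, and the counts do not show where in the gene the reads lie. ITGB1 and ITGAV span longer genes and had 214 and 17 CLIP counts. The part of gene length in the CLIP counts was not tested.

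In freCLIP, ITGB8 was missing from the light fraction of Q157R. It had 0 and 0 counts in the light Q157R libraries, which held 38415 and 135596 gene counts. Light S34F libraries had 20, 5 and 54 counts, and light WT libraries 2, 65 and 35 counts. Summed over libraries, 0 counts in Q157R allows up to 17.2 CPM (3 counts of the total gene counts), against 177.1 CPM in WT. The summed WT value was thus 10.3-fold above this limit. That ratio leaves out the counting error of WT, whose 95% interval was 145.9 to 214.9 CPM, so it is not a lower bound. Single light WT libraries had 25.3, 200.5 and 202.4 CPM, a spread that the ratio does not cover, and the lowest lay near 17.2 CPM. Without light Q157R replicate 3 the ratio was 2.27-fold (up to 78.1 CPM in the 1 library left). All entries shifted in this comparison: their median log2 fold change was -1.19, and -0.80 with RLE scaling. The edgeR adjusted p was 0.0108, and 0.0207 with the block. ITGB8 was 1 of 4 members tested in freCLIP and the only one called, where 7.6% of all 6833 entries were called and 6.25% were called lower. The call was lost without light Q157R replicate 3 (adjusted p 0.0992), the deeper of the 2 libraries.

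In the heavy fraction of Q157R ITGB8 was detected. It had 7 and 98 counts in heavy Q157R, 26, 25 and 136 in heavy S34F, and 7, 7, 85 and 68 in heavy WT libraries. The groups overlapped, with log2 differences of 0.84 ± 0.80 for Q157R over WT and 0.85 ± 0.72 for S34F over WT (adjusted p 1.00 each). Without heavy Q157R replicate 3 the Q157R value was -0.59. ITGA6 was present in the light fraction of Q157R, at 5 and 9 counts, against 14, 20 and 37 in light WT (log2 -1.01 ± 0.97, adjusted p 0.476). ITGA5 had 0 counts in light Q157R and 23 over the light WT libraries, and its difference did not pass (adjusted p 0.114). In the heavy fraction ITGA5 had 0 and 4 counts in Q157R, against 8, 3, 116 and 29 in WT (log2 -3.43 ± 1.54, unadjusted p 0.0304, adjusted p 1.00). Heavy ITGA6 for S34F over WT was -0.37 ± 0.72 (adjusted p 1.00), and the sign changed with the block (0.11) and without heavy WT replicate 4 (0.08). In S34F over WT none of the 4 members was called in the light fraction (0.337% of entries called) or in the heavy fraction (0.132%), and in heavy Q157R over WT 0 members and 0% of entries were called. For these 3 comparisons DESeq2 called 0 members each, and 0, 0 and 1 members and 970, 278 and 149 entries had an unadjusted p under 0.05. Intervals and limits on counts cover counting error only, since reads of 1 amplified molecule may be counted more than once.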

How the data were processed

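The deposited tables held raw read counts per annotated gene, per the file headers and the values, for 10 RNA-seq, 7 eCLIP and 17 freCLIP libraries. Not analysed here were 9 TimeLapse-seq samples. Per the submitters' processing notes, the build was GRCh38.p10 and the tools included HTSeq, SAMtools, HISAT2, cutadapt and STAR (2.5.3a, 2.7.0f), with edgeR and DESeq2; their roles are not stated. The annotation release and the strand setting of the counting are not given in the sources used here. Gene IDs were matched to GENCODE release 29 (58084 of 58347), and lines that named no gene entered neither library sizes nor tests; 43.6% to 56.1% of the counted RNA-seq reads named a gene.

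Counts were fitted with edgeR 4.0.16 in R 4.3.3 (TMM, filterByExpr with minimum count 10, robust quasi-likelihood F test, 1 mean per group, all libraries of an assay together), with Benjamini-Hochberg adjustment over all 21300 RNA or 6833 freCLIP entries tested and a threshold of 0.05. Groups with 1 library borrow the spread of the others. The 3 technical eCLIP replicates were summed into their biological replicate and got no test. The steps were tested on simulated data. Alternatives were DESeq2 1.42.0, the replicate number as a block, RLE scaling, no filter, only the compared groups, scaling on protein-coding genes and leaving out each library. Replicate numbers come from the sample titles; deviations from the group means correlated between like-numbered RNA libraries in every pair of groups (r 0.211 to 0.652), so the numbers were taken to pair libraries. The 10 members, the gene lists and the naming rule (all members; from a list up to 4 called genes, otherwise the 2 most abundant) were chosen with earlier results of these data known. Promoter windows are from RefSeq (GRCh38.p14).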

Additional observations from a re-analysis of the deposited data

Results flagged for a closer look

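In the 4 heavy freCLIP libraries of WT, 1 library stood apart for ITGA6. The highest had 278.1 CPM (of all gene counts), against 110.3 to 128.6 CPM in the other WT libraries; chance gives such a gap in about 1 of 20 groups, and 9 members were looked at. For 5 more members 1 library had 1 to 4 counts and the others 0, a gap that any single library with reads gives, so the rate of 1 in 20 does not hold for them. Those libraries had 10.03 CPM for ITGAX and for ITGA4, 5.472 CPM for ITGAL and for ITGB2, and 8.283 CPM for ITGAV.

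On induction, both S34F libraries moved below and both Q157R libraries above the uninduced library of their line for 3 of 9 members, a pattern that 6.2% of the 21300 genes tested shared. Each line had 1 uninduced library, and the difference between S34F and Q157R was not tested. ITGA5 had log2 fold changes of -0.638 in S34F, 0.181 in Q157R and 0.015 in WT. ITGA6 had -0.948 in S34F, 0.917 in Q157R and -0.65 in WT. ITGB1 had -0.189 in S34F, 0.441 in Q157R and -0.168 in WT. In WT, induced and uninduced libraries overlapped for all 3. In S34F, ITGA5 passed with the replicate block or with only the compared groups, and ITGA6 with only the compared groups or without a filter on low counts; the other changes in S34F and Q157R passed in no setting.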

How the results depend on the processing

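Of 454 recomputed member values, 402 kept their direction and side of the threshold, 26 gained the threshold, 8 lost it and 18 turned. The cause of each change was not tested. Of 272 recomputed counts of calls, 188 stayed within 1.5 times.

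Paired analysis with the replicate block moved the number of genes called to 4779 in S34F over WT (356 without it), 4 in Q157R over WT (0), 4261 in S34F over Q157R (119), 89 on induction of WT (0), 4099 of S34F (418) and 56 of Q157R (0). For induction in S34F minus WT it gave 150 (0) and for Q157R minus WT 1 (0). Members called with the block were 4 for S34F over WT (1), 3 for S34F over Q157R (0), 2 on induction of WT (0), 2 on induction of S34F (1) and 1 for induction in S34F minus WT (0). In freCLIP it gave 333 entries for light Q157R (519) and 17 for heavy S34F (9). It changed no other member call.

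DESeq2 called 1569, 3, 1239, 18, 1790 and 69 genes in the first 6 of these comparisons and 19 for induction in S34F minus WT, 123 and 30 entries in light (23 in edgeR) and heavy S34F, and 1 member each for S34F over Q157R, induction of WT and induction of Q157R. Without a filter on low counts, edgeR called 2410, 15, 2135, 130, 2992 and 569 genes, 306 and 44 for the differences of inductions, and 63 and 119 for uninduced S34F and Q157R over WT. Members called were then 3 for S34F over WT, 2 for S34F over Q157R, 1 on induction of WT, 4 of S34F, 3 of Q157R, and 1 each for uninduced S34F and Q157R over WT. With only the compared groups fitted, 0 genes were called for S34F over WT and S34F over Q157R and 0 members for S34F over WT, while induction called 4357 genes and 5 members in S34F and 8 genes in Q157R; light S34F gave 11, light Q157R 263 and heavy S34F 1. Scaling on protein-coding genes gave 239 genes on induction of S34F, and RLE scaling 6 entries in heavy S34F.

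Leaving out 1 library gave 0 genes in each RNA comparison that had calls, and 0 members. In freCLIP it gave 6 to 28 entries for light S34F, 137 to 1318 for light Q157R with 0 to 1 members, and 0 to 2 for heavy S34F.

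These log2 values turned. With scaling on protein-coding genes, S34F over WT became 0.048 for ITGA4 and 0.067 for ITGB1. Leaving out 1 library at a time, S34F over WT ranged over -1.201 to 0.114 for ITGAX, -0.84 to 0.598 for ITGAL, -3.1 to 0.908 for ITGB2, -0.309 to 0.125 for ITGA4 and -0.217 to 0.059 for ITGB1. It was positive without WT induced replicate 2 for all of these but ITGA4, which turned without WT induced replicate 1, and for ITGB1 also without S34F induced replicate 2 (0.022). ITGB2 in S34F over Q157R ranged over -2.975 to 0.885, positive without Q157R induced replicate 2. Induction in WT ranged over -0.185 to 0.183 for ITGA5 (below 0 without WT induced replicate 2, and -0.122 without uninduced replicate 1), -1.229 to 0.308 for ITGA6 and -0.415 to 0.113 for ITGB1, both positive without WT uninduced replicate 2. Uninduced ITGAM in S34F over WT ranged over -0.376 to 0.016, positive without WT uninduced replicate 2 and with the block (0.006). Heavy freCLIP ITGA6 in S34F over WT ranged over -0.508 to 0.084, positive without heavy WT replicate 4 and with the block (0.108). Heavy freCLIP ITGB8 in Q157R over WT ranged over -0.586 to 1.454, negative without heavy Q157R replicate 3. Groups held 2 RNA libraries, and uninduced mutants 1, which limits what these fits can call.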
